A study of Mus musculus with 30 samples.

Results

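Nodal and its partners were followed in neuronal progenitor cells (NPCs) derived in vitro from mouse embryonic stem cells (ESCs). The genes were *Nodal*, *Gdf3*, *Tdgf1*, *Acvr2b*, *Foxh1*, *Lefty1* and *Lefty2*, chosen by symbol as ligands, receptors, cofactor and antagonists of a single pathway. These 7 genes were all found among the 25400 genes of the count table, and all 7 passed the filter on low counts that left 16582 genes. Poly(A) RNA-seq covered 24 libraries, 3 from each of 8 lines.

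The lines compared WT ESCs of the 129×C57BL/6 line HA36CB1 with *Mbd3* KO ESCs and with 6 derivatives of the *Mbd3* KO. All 6 derivatives carried the *Mbd3* KO and a biotin-tagged construct inserted at a recombination site under the strong CAG promoter, in cells that still had their own *Mbd2*. The MBD3 constructs were MBD3a and MBD3ΔMBD, which is MBD3a without its MBD domain, the counterpart of the methyl-binding domain of MBD2. According to the paper, the MBD3 domain is missing residues needed to recognise methylated CpG. The MBD2 constructs were MBD2a, MBD2aΔGR (which lacks the glycine-arginine stretch), MBD2aR181C (a point mutant in the methyl-binding domain) and MBD2t (the truncated isoform). The labels give the mutation as R181C, the paper's text as R191C and the count columns as R64C. The columns were taken as this line because it is the only arginine-to-cysteine mutant among the labels, so every MBD2aR181C value rests on that match. Libraries of a line came from separately derived clones, but the 3 MBD2t libraries were repeats of 1 clone and lack the spread between clones.

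MBD2 and MBD3 are alternative subunits of the NuRD complex, which combines nucleosome remodelling with histone deacetylation. Nodal is a TGF-β family ligand that signals through activin receptors and SMAD2/3, and it needs an EGF-CFC co-receptor such as Tdgf1 (Cripto). SMAD2/3 act with the forkhead factor Foxh1 at enhancers of *Nodal* itself and of the *Lefty* genes, whose secreted products block Nodal signalling, so the pathway contains both positive and negative feedback. Nodal signalling is active in pluripotent cells and the early embryo and must fall for neural fate to be adopted.

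On the mouse assembly NCBIM37 (mm9), *Lefty2* (ENSMUSG00000066652.5, chr1:182823239-182829234) and *Lefty1* (ENSMUSG00000038793.8, chr1:182865153-182868531) lie on the plus strand, 35918 bases apart. *Nodal* (ENSMUSG00000037171.6) occupies chr10:60880720-60888086 on the plus strand and *Gdf3* (ENSMUSG00000030117.4) chr6:122555421-122560105 on the minus strand. *Tdgf1* (ENSMUSG00000032494.8, minus strand) and *Acvr2b* (ENSMUSG00000061393.6, plus strand) are both on chromosome 9, at chr9:110842114-110848662 and chr9:119311562-119342619. *Foxh1* (ENSMUSG00000033837.4) is at chr15:76498714-76500378 on the minus strand. No annotated gene overlapped any of the 7 on either strand. The longest *Lefty1* and *Lefty2* transcripts were 86.9% identical over 1607 aligned bases, but no stretch of 150 bases, the read length, was shared between them. Likewise no such stretch of *Tdgf1* recurred in the pseudogene *Tdgf1-ps2*.

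Because *Nodal* and the *Lefty* genes are known targets of Foxh1, the letters AATCCACA, a form of the Foxh1 motif, were searched on both strands from 10000 bases before to 5000 bases after each gene start. Such a window held a match in 46.8% of 22366 protein-coding genes, so a match alone sets no gene apart. *Lefty2* had 2 matches within 100 bases of each other, 4215 and 4132 bases upstream, an arrangement found in 0.393% of windows. *Lefty1* had 1 match, 5330 bases upstream, and *Nodal* had 2, both in intron 1 at 1327 and 2121 bases after the start. *Foxh1* held 3 matches, while the windows of *Gdf3*, *Tdgf1* and *Acvr2b* held 0. A match describes the letters only and is not evidence of binding. The stretches around the *Lefty* and *Nodal* matches are given 5′ to 3′ on the plus strand of mm9, with the matching letters in capitals.
*Lefty2*, chr1:182818994-182819144: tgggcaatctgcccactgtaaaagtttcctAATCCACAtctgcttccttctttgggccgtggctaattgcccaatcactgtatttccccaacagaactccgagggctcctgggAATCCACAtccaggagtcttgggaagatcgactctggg
*Lefty1*, chr1:182859793-182859860: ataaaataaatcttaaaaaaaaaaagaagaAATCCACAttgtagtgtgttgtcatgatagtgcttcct
*Nodal*, intron 1, chr10:60882017-60882084: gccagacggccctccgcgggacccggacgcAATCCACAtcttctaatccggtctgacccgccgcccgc
*Nodal*, intron 1, chr10:60882811-60882878: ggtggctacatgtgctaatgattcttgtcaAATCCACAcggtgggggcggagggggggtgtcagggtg

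Library totals ran from 27993858 to 49392806 counts, at which 3 counts are worth 0.0607 to 0.107 CPM (counts scaled by library size). Every member was above this floor in every library, the lowest being 6 counts of *Gdf3* in a WT library. *Mbd3* itself averaged 153.6 ± 4.06 CPM (SD, n = 3) in WT and 59.0 ± 21.6 CPM in *Mbd3* KO. *Mbd2*, whose counts can include construct reads, was at 64.2 to 70.9 CPM in *Mbd3* KO, 67.0 to 87.2 CPM in MBD2a, 253 to 325 CPM in MBD2aR181C, 280 to 700 CPM in MBD2aΔGR and 335 to 356 CPM in MBD2t. The MBD2a libraries thus overlapped the *Mbd3* KO without a construct and lay below all libraries of the other MBD2 lines. These are RNA levels in NPCs, and the paper reports from Western blots of ESCs equal MBD2 protein in its MBD2a and MBD2aΔGR lines. WT library s03 and MBD2aR181C library s20, numbered as in the deposited table, stood apart from their own lines in ESC-like markers, MBD2aΔGR library s18 in extraembryonic endoderm markers and *Mbd3* KO library s04 and MBD2a library s15 in the level of chromosome 1 genes.

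The loss of MBD3 was examined first. *Nodal*, *Gdf3*, *Tdgf1*, *Foxh1*, *Lefty1* and *Lefty2* were all higher in *Mbd3* KO than in WT NPCs, by 1.36 to 4.53 on the log2 scale, so ligands, co-receptor, cofactor and antagonists rose together. *Acvr2b* did not follow and was lower. A gene was called when its Benjamini-Hochberg adjusted p in edgeR's quasi-likelihood test was under 0.05 and its log2 fold change exceeded 1 in size. By this rule 6 of the 7 were called higher and 0 lower, against 19.6% of tested genes called higher and 14.2% called lower. The median log2 fold change of the 7 was 1.82, against -0.03 for all genes tested. The libraries of the 2 lines did not overlap for 5 of the 7, against 62.2% of all genes.

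*Nodal* stood at 1.88, 2.67 and 7.64 CPM in the WT libraries and at 27.2, 18.2 and 11.4 CPM in the *Mbd3* KO libraries. All *Mbd3* KO libraries lay above all WT libraries, although the spread was wide in both lines. The log2 fold change was 2.20 ± 0.56 (SE), with an edgeR adjusted p of 0.00242. *Gdf3*, a second ligand of the same receptors, was at 0.161, 0.413 and 3.63 CPM in WT and at 12.3, 6.40 and 3.54 CPM in *Mbd3* KO. Its groups overlapped, because the highest WT library exceeded the lowest *Mbd3* KO library. *Gdf3* rose by 2.35 ± 0.85 (log2, SE; edgeR adjusted p = 0.0225).

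*Tdgf1*, the co-receptor, changed more than any other member. It was at 0.456, 1.24 and 3.04 CPM in WT and at 59.3, 27.9 and 24.3 CPM in *Mbd3* KO, with no overlap. The log2 fold change was 4.53 ± 0.67 (SE; edgeR adjusted p = 1.59e-05). *Acvr2b*, the type II receptor that binds Nodal and activins, went the other way, from 50.0, 43.3 and 25.7 CPM in WT to 22.3, 20.8 and 22.03 CPM in *Mbd3* KO. Its libraries did not overlap, and the log2 fold change of -0.87 ± 0.23 (SE) had an edgeR adjusted p of 0.00349, but it was too small in size to be called.

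*Foxh1*, the DNA-binding partner of SMAD2/3, was at 2.01, 2.696 and 5.82 CPM in WT and at 21.4, 8.34 and 5.40 CPM in *Mbd3* KO. The lowest *Mbd3* KO library fell below the highest WT library, and the log2 fold change was 1.72 ± 0.56 (SE; edgeR adjusted p = 0.013). *Lefty1* was at 7.27, 6.46 and 10.7 CPM in WT and 49.9, 24.2 and 12.3 CPM in *Mbd3* KO. It rose by 1.82 ± 0.58 (log2, SE; edgeR adjusted p = 0.0111), with no overlap. *Lefty2* was at 5.53, 5.14 and 7.18 CPM in WT and 23.8, 14.1 and 8.09 CPM in *Mbd3* KO. Its rise of 1.36 ± 0.57 (log2, SE) was the least certain, with an edgeR adjusted p of 0.0479.

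**Figure D1:**
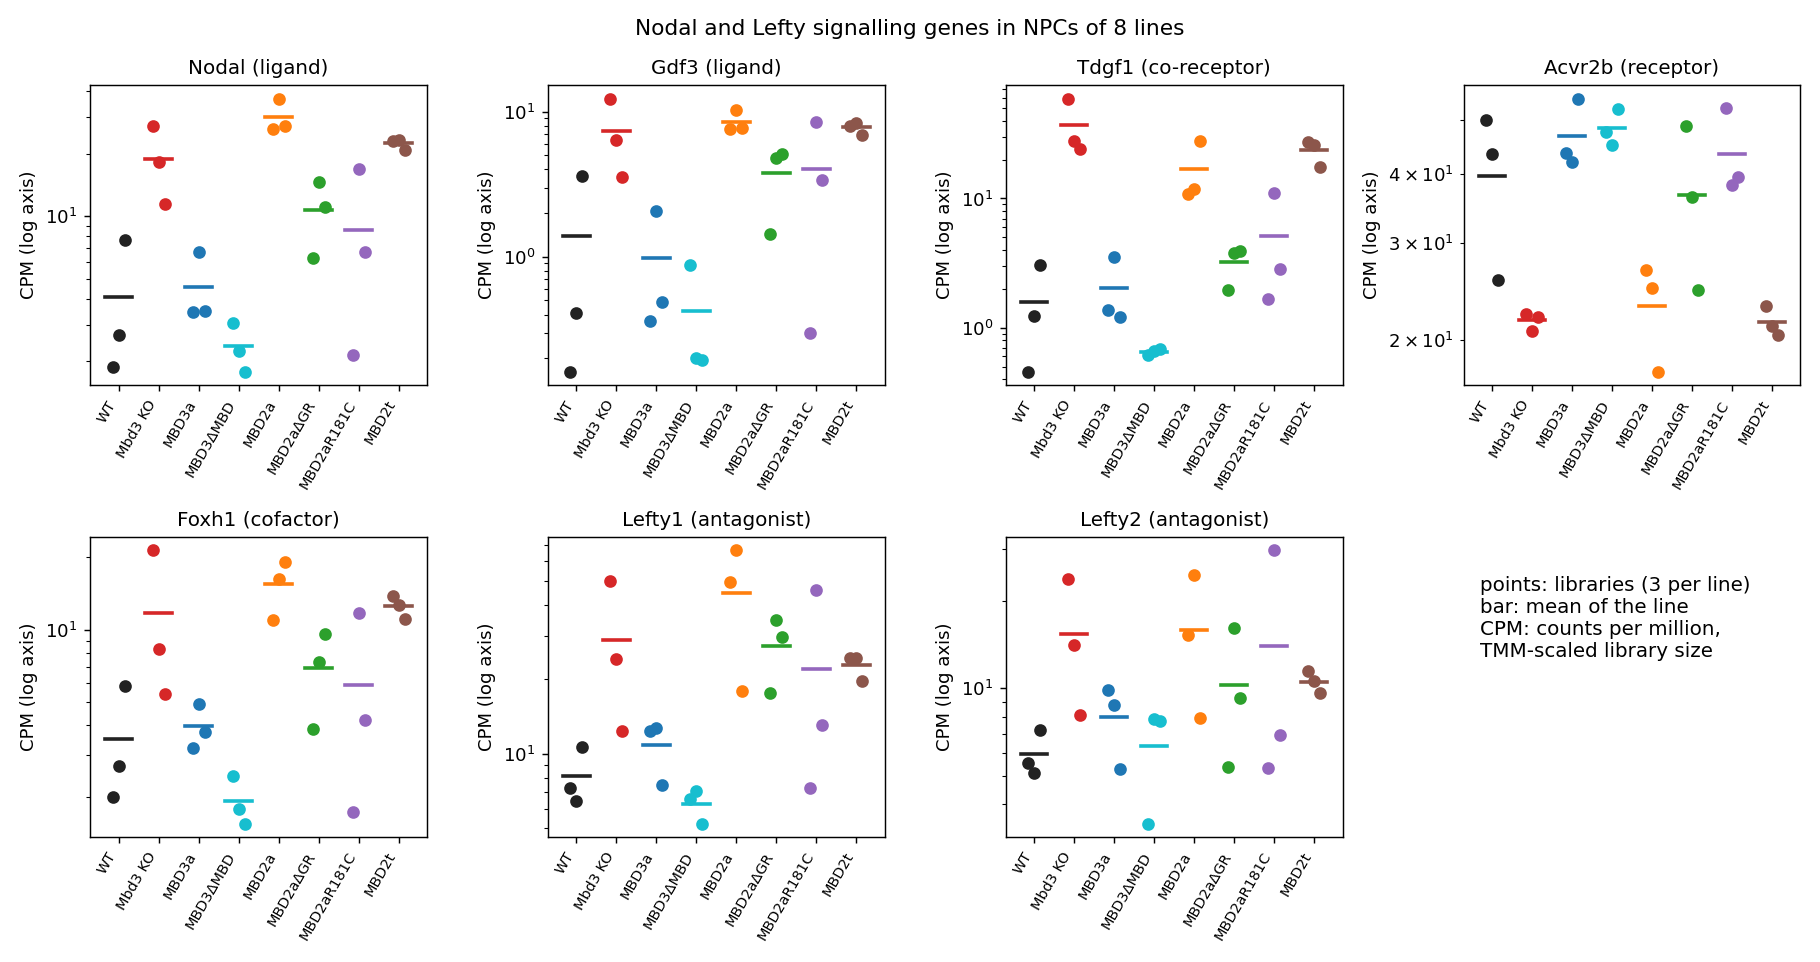
CPM of the 7 genes (log axes) in each library of the 8 lines, with points for libraries and a bar for the mean of 3. On average, *Nodal*, *Gdf3*, *Tdgf1*, *Foxh1* and the *Lefty* genes are high in *Mbd3* KO, MBD2a and MBD2t and low in WT, MBD3a and MBD3ΔMBD. *Acvr2b* runs the other way, and MBD2aR181C libraries are far apart. Libraries of the high and low lines overlap for every gene other than *Nodal* and *Tdgf1*.

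The spread within lines decided several of these calls. Leaving out each of the 6 libraries in turn, *Nodal* and *Tdgf1* were called in every fit. Without *Mbd3* KO library s04 only these 2 remained called, without WT library s01 3 members were called and without WT library s02 4. *Lefty2* passed only in the fit without *Mbd3* KO library s06. *Gdf3* was lost in a fit of these 2 lines alone (adjusted p = 0.0638). Without WT library s03, *Acvr2b* reached a log2 fold change of -1.11 (edgeR adjusted p = 0.000317) and was called lower.

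In *Mbd3* KO library s04 the median gene on chromosome 1 was 0.36 lower (log2) than in the other two libraries of the line, and in library s06 0.28 higher. Both *Lefty* genes are on this chromosome. *Lefty1* was nevertheless highest in library s04 and lowest in library s06. The part of these chromosome-wide shifts in the *Lefty* values was not tested.

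All 13 ESC-like markers tested were called higher in *Mbd3* KO than in WT, and all 9 neural progenitor markers tested were called lower. The summed ESC-like markers ranged from 34.2 to 238.4 CPM in WT and from 461 to 1339 CPM in *Mbd3* KO. The neural progenitor markers summed to 1414 to 2105 CPM in WT and 149 to 223 CPM in *Mbd3* KO. All 7 trophoblast markers were also called higher, at 146 to 302 CPM in WT and 1672 to 2234 CPM in *Mbd3* KO, and 1 of 8 extraembryonic endoderm markers was, though this list summed to 405 to 558 CPM in WT and 1080 to 1516 CPM in *Mbd3* KO, without overlap, and had a median log2 fold change of 1.01. None of the ESC-like markers was at 0: *Nanog* was at 0.805 to 30.7 CPM in WT and at 40.3 to 164 CPM in *Mbd3* KO. In bulk RNA, more cells of a type and more RNA per cell cannot be told apart, and the part of this shift in markers in the member values was not tested.

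Within lines, members other than *Acvr2b* often peaked in the library with the highest ESC-like sum. WT library s03 had the highest ESC-like sum of its line and also the highest level of all members other than *Acvr2b*, which was lowest there. Over the 8 lines, the library with the most ESC-like marker RNA also held the most *Foxh1* in 8 lines, the most *Tdgf1* in 7, the most *Gdf3* in 6, the most *Nodal* and the most *Lefty1* in 5 each, and the most *Lefty2* in 4. For *Acvr2b* that library held the most in 2 lines and the least in 5. It held the least *Lefty2* in 2 lines, the least *Lefty1* and *Tdgf1* in 1 each, and the least *Nodal*, *Gdf3* and *Foxh1* in 0. With 3 libraries per line some such matches arise by chance, and the share over all genes was not computed.

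**Figure D2:**
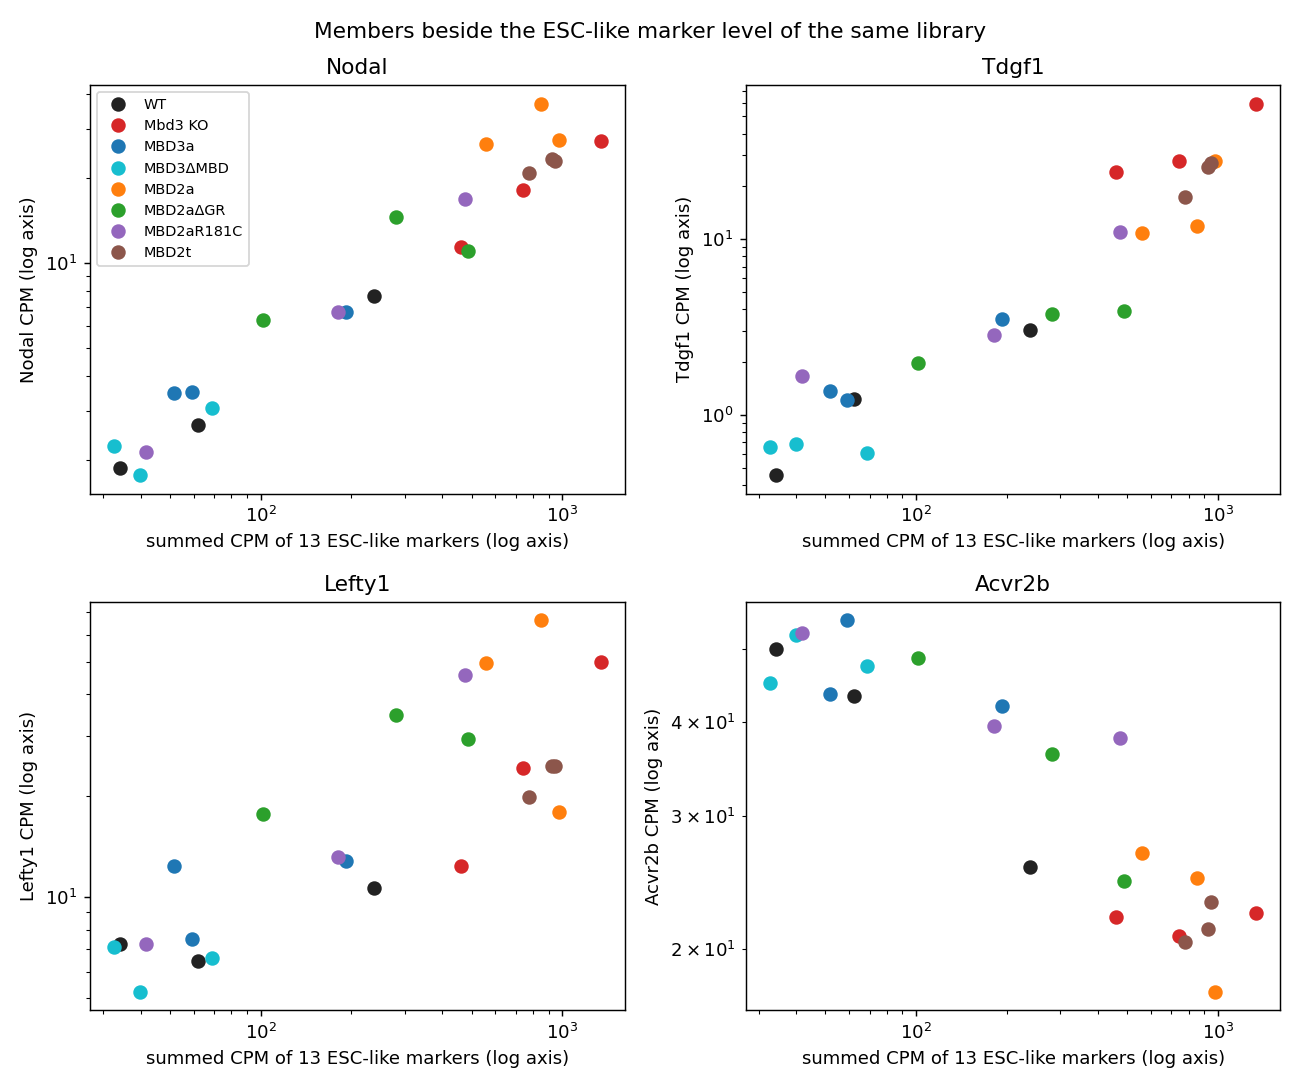
CPM of *Nodal*, *Tdgf1*, *Lefty1* and *Acvr2b* (log axes) against the summed CPM of 13 ESC-like markers in the same library, coloured by line. *Nodal* climbs with the marker sum over all 24 libraries and *Acvr2b* declines. *Mbd3* KO library s06 and MBD2aΔGR library s18 had like marker sums, 461 and 487 CPM. *Tdgf1* was at 24.3 CPM in s06 and 3.93 CPM in s18. This is a single pair of libraries, and s18 stood apart from its line in extraembryonic endoderm markers.

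Per length of transcript the order of the members changed between the lines. In WT NPCs *Acvr2b* led with 22.6 ± 7.17 CPM per kilobase of exon (SD, n = 3), and the other 6 averaged between 0.659 (*Gdf3*) and 4.63 (*Lefty1*) CPM per kilobase. In *Mbd3* KO the means were 19.3 ± 9.99 for *Tdgf1*, 16.4 ± 10.9 for *Lefty1* and 12.4 ± 0.468 CPM per kilobase for *Acvr2b*. *Nodal* followed at 9.04 ± 3.77, *Foxh1* at 8.97 ± 6.53, *Lefty2* at 5.87 ± 3.03 and *Gdf3* at 3.49 ± 2.11 CPM per kilobase.

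Re-expression of MBD3 was examined next. In MBD3a NPCs no member was called against WT by edgeR (0 with an unadjusted p under 0.05, and 0 by DESeq2), where 0% of all tested genes were called. In MBD3ΔMBD NPCs the count was likewise 0 by each of these criteria, against 0.0181% of all genes. *Nodal* was at 3.46, 6.73 and 3.51 CPM with MBD3a and at 3.06, 2.24 and 1.78 CPM with MBD3ΔMBD, both within or beside the WT range. *Tdgf1* was at 1.37, 3.52 and 1.21 CPM with MBD3a and at 0.612, 0.661 and 0.681 CPM with MBD3ΔMBD. *Lefty1* was at 12.4, 12.7 and 7.50 CPM with MBD3a and at 6.57, 7.10 and 5.23 CPM with MBD3ΔMBD. The ESC-like sums, 51.7 to 192 CPM with MBD3a and 32.8 to 68.8 CPM with MBD3ΔMBD, also overlapped those of WT.

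Against *Mbd3* KO, MBD3a NPCs had 5 members called lower and 1, *Acvr2b*, called higher, where 18.9% of tested genes were lower and 13.5% higher. *Nodal* fell by 2.05 ± 0.57 (log2, SE; edgeR adjusted p = 0.00467), *Gdf3* by 2.92 ± 0.94, *Tdgf1* by 4.19 ± 0.67, *Foxh1* by 1.56 ± 0.57 and *Lefty1* by 1.40 ± 0.57. *Acvr2b* rose by 1.11 ± 0.23, from at most 22.3 CPM to at least 42.1 CPM, and by 0.97 with scaling by library size only, short of the threshold. *Lefty2* was not called (edgeR adjusted p = 0.168). The count of 6 dropped to 3 without *Mbd3* KO library s04 or MBD3a library s07 and to 2 without MBD3a library s09, and *Nodal* and *Tdgf1* were called in all of these fits.

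MBD3ΔMBD gave the same 5 lower and *Acvr2b* higher, where 20.9% of tested genes were lower and 15% higher than in *Mbd3* KO. The log2 fold changes were -3.03 ± 0.61 for *Nodal*, -4.27 ± 1.08 for *Gdf3*, -5.82 ± 0.76 for *Tdgf1*, -2.62 ± 0.61 for *Foxh1*, -2.19 ± 0.60 for *Lefty1* and 1.15 ± 0.23 for *Acvr2b* (SE). All 6 were called whichever library was left out, though *Acvr2b* fell short, at 0.98, with scaling by library size only. *Lefty2*, at 3.44, 7.88 and 7.71 CPM, did not pass (edgeR adjusted p = 0.0659), though it did by DESeq2 (adjusted p = 0.0275), with scaling by library size only (0.0435) and in a fit of these 2 lines alone (0.0415). MBD3a and MBD3ΔMBD were compared with the same *Mbd3* KO libraries.

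**Figure D3:**
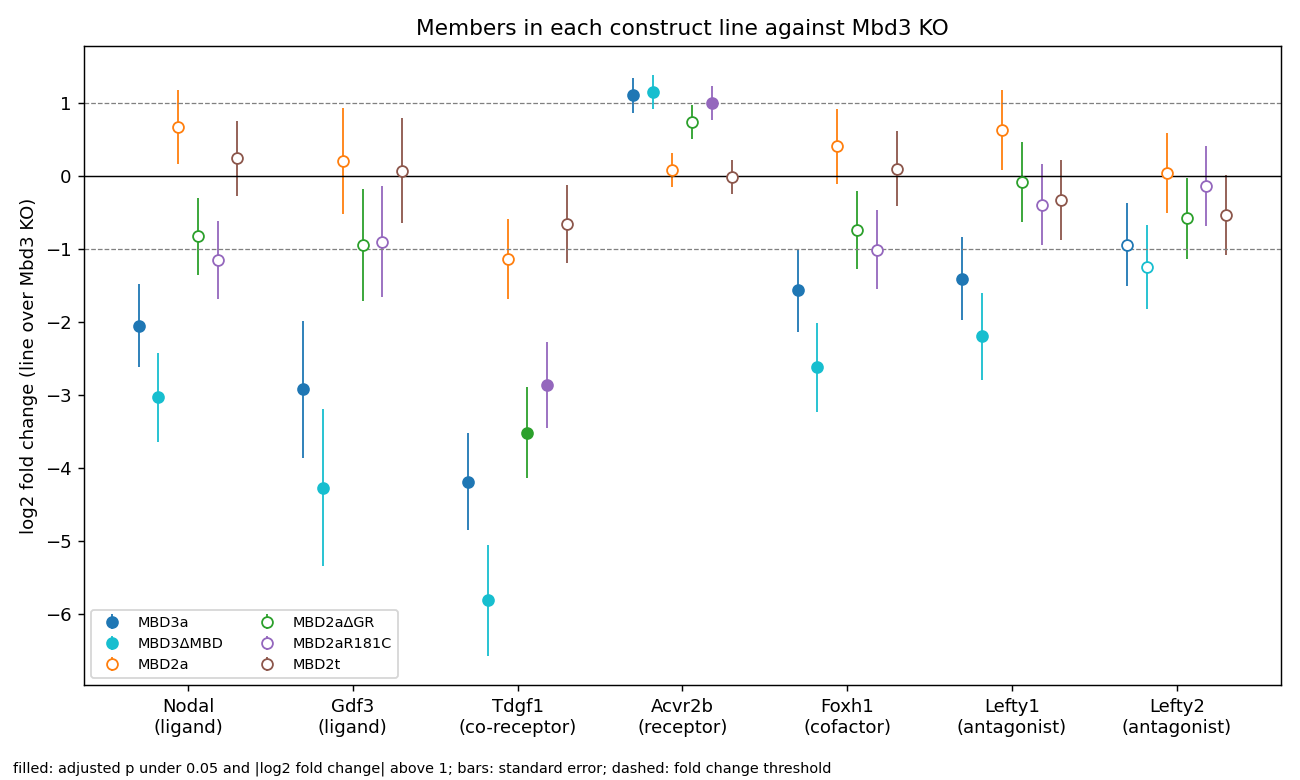
Log2 fold change of each member in the 6 construct lines against *Mbd3* KO, with bars for the SE and filled points for called changes. The filled points are mostly those of MBD3a and MBD3ΔMBD, and *Tdgf1* is also filled for MBD2aΔGR and MBD2aR181C.

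Full-length MBD2a did not bring the members near WT. The 6 members called higher in *Mbd3* KO were also called higher in MBD2a NPCs against WT, and 0 were lower, where 16.9% of tested genes were higher and 13.7% lower. *Nodal* was at 26.4, 36.9 and 27.3 CPM, the highest mean of the 8 lines, and 2.88 ± 0.57 (log2, SE) above WT (edgeR adjusted p = 0.000353). *Gdf3*, at 7.60, 10.3 and 7.77 CPM, was 2.56 ± 0.85 above WT and no longer overlapped it. *Tdgf1*, at 10.9, 11.8 and 27.9 CPM, was 3.39 ± 0.66 above WT. *Foxh1* was at 11.02, 16.2 and 19.1 CPM, and 2.13 ± 0.56 above WT.

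The *Lefty* genes varied more among MBD2a clones. *Lefty1* was at 49.4, 66.4 and 17.9 CPM, 2.45 ± 0.59 above WT (edgeR adjusted p = 0.00178). *Lefty2* was at 15.2, 24.5 and 7.90 CPM, 1.41 ± 0.58 above WT (edgeR adjusted p = 0.0445). Both were lowest in MBD2a library s15, in which the median chromosome 1 gene was 0.42 lower (log2) than in the other two libraries of the line, a shift whose part was not tested. *Acvr2b* fell by 0.78 ± 0.23 (log2, SE; edgeR adjusted p = 0.00801), too little to be called, but it reached -1.02 (adjusted p = 0.000812) and was called lower without WT library s03. *Nodal*, *Tdgf1*, *Foxh1* and *Lefty1* were called whichever library was left out, while *Gdf3* was lost without WT library s01 or s02 and *Lefty2* in 5 of 6 fits.

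Markers moved with the members in MBD2a as well. Against WT, 12 of 13 ESC-like, 5 of 7 trophoblast and 5 of 8 extraembryonic endoderm markers were called higher, and 9 of 9 neural progenitor markers lower. The ESC-like sum was 558 to 977 CPM and the neural progenitor sum 99.2 to 247 CPM. Library s15, highest in *Tdgf1* and *Foxh1*, also had the highest trophoblast sum, 2094 CPM against 519 and 555 CPM, and the highest extraembryonic endoderm sum, 3026 CPM against 2360 and 615 CPM. The same library had the highest ESC-like sum of the line, 977 CPM, and the lowest neural progenitor sum, 99.2 CPM. The part of these shifts in the member values was not tested.

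Against *Mbd3* KO, no member was called in MBD2a NPCs (0 also with an unadjusted p under 0.05 and by DESeq2), where 5.25% of tested genes were. *Nodal* and *Tdgf1* had log2 fold changes of opposite sign, and only *Tdgf1* exceeded 1 in size, at -1.13 ± 0.55 (SE; edgeR adjusted p = 0.227). The ratio of *Tdgf1* to *Nodal* CPM within a library was 1.53 to 2.18 in *Mbd3* KO, 0.841 to 1.18 in MBD2t and 0.321 to 1.02 in MBD2a. It lay between 0.200 and 0.523 in WT, MBD3a, MBD3ΔMBD and MBD2aΔGR, and between 0.425 and 0.782 in MBD2aR181C. MBD2a libraries thus had less *Tdgf1* per *Nodal* than *Mbd3* KO libraries, with no overlap, a description for which 3 against 3 libraries allow no exact permutation p under 0.1.

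The 2 antagonists also differed in proportion. The ratio of *Lefty1* to *Lefty2* CPM was 1.26 to 1.48 in WT, 1.25 to 1.46 in MBD3a and 1.52 to 2.10 in *Mbd3* KO. It was 2.26 to 3.24 in MBD2a, 2.15 to 3.29 in MBD2aΔGR and 2.05 to 2.31 in MBD2t, but 1.36 to 1.90 in MBD2aR181C. In MBD3ΔMBD it ranged from 0.678 to 1.91. Since both values come from the same library, the ratio does not depend on library scaling.

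MBD2t NPCs also held high levels of these genes. No member was called between MBD2t and *Mbd3* KO (0 also with an unadjusted p under 0.05 and by DESeq2), where 0.0241% of tested genes were. Against WT, 5 members were called higher and 0 lower, where 18.2% of tested genes were higher and 15.1% lower. *Nodal* was at 23.1, 23.4 and 20.8 CPM (log2 fold change 2.45 ± 0.56, SE) and *Tdgf1* at 27.3, 25.8 and 17.5 CPM (3.87 ± 0.66). *Gdf3* rose by 2.43 ± 0.84, *Foxh1* by 1.82 ± 0.56 and *Lefty1* by 1.49 ± 0.58 (log2, SE; edgeR adjusted p = 0.0322 for *Lefty1*). *Lefty2* lay above WT in all libraries, at 9.64 to 11.4 CPM, but did not pass (edgeR adjusted p = 0.225). *Acvr2b* was 0.88 lower on the log2 scale (edgeR adjusted p = 0.00317), which was too small in size. Without WT library s01 or s02, *Gdf3* and *Lefty1* were lost and 3 members were called. *Lefty1* was also lost without MBD2t library s22 or s23 (edgeR adjusted p = 0.0661 and 0.065), so it was called in 2 of 6 such fits, and *Acvr2b* was called lower without WT library s03 (log2 fold change -1.12, adjusted p = 0.000289). All 13 ESC-like and 7 trophoblast markers were called higher than in WT and all 9 neural progenitor markers lower, with sums of 777 to 949 CPM for ESC-like, 1369 to 1526 CPM for trophoblast and 176 to 197 CPM for neural progenitor markers. The part of this shift in the member values was not tested.

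**Figure D4:**
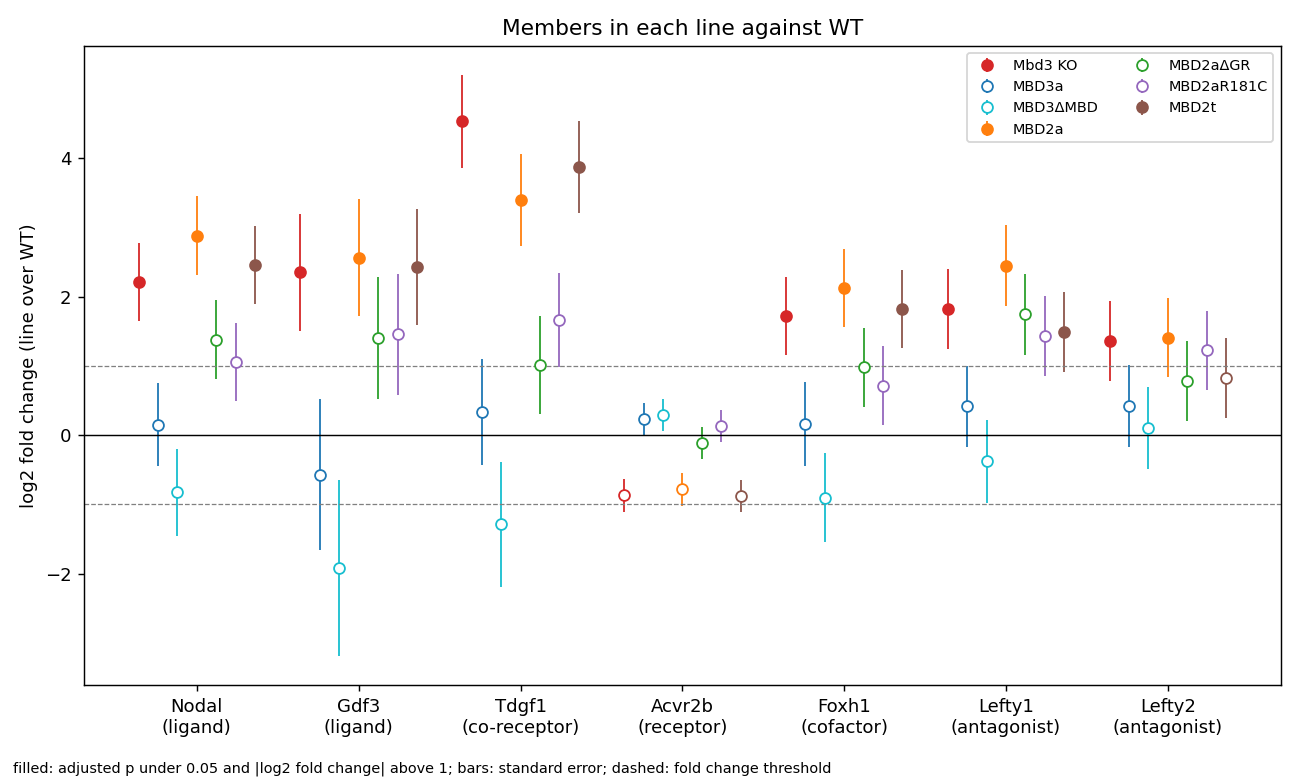
Log2 fold change of each member in the 7 other lines against WT, with bars for the SE and filled points for called changes. Filled points are those of *Mbd3* KO, MBD2a and MBD2t, and *Lefty2* is unfilled for MBD2t.

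In MBD2aΔGR the mean of every member lay between those of WT and *Mbd3* KO, with *Lefty1* close to *Mbd3* KO and *Tdgf1* closer to WT. In MBD2aΔGR NPCs *Nodal* was at 6.30, 14.6 and 11.1 CPM, *Tdgf1* at 1.97, 3.78 and 3.93 CPM, *Gdf3* at 1.44, 4.82 and 5.15 CPM and *Foxh1* at 3.87, 7.36 and 9.64 CPM. *Lefty1* was at 17.7, 34.6 and 29.6 CPM, all above the WT libraries. No member was called against WT by edgeR, where 5.16% of tested genes were called, but 2 had an unadjusted p under 0.05 and DESeq2 called 1, *Lefty1* (adjusted p = 0.0192). In the edgeR fit *Lefty1* had a log2 fold change of 1.74 ± 0.58 (SE; adjusted p = 0.0664) and *Nodal* of 1.379 ± 0.57 (adjusted p = 0.127). Without WT library s03 *Nodal* was called, and without MBD2aΔGR library s16 *Lefty1* was. Leaving out MBD2aΔGR library s18 left the count at 0. In that library the extraembryonic endoderm markers summed to 13297 CPM, against 765 and 928 CPM in the rest of the line. All of these sums lay above the WT range of 405 to 558 CPM. With all libraries, 7 of 8 of these markers were called higher than in WT, and 1 of 13 ESC-like markers was. The part of this shift in the member values was not tested.

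Against *Mbd3* KO only *Tdgf1* was called in MBD2aΔGR NPCs, lower by 3.52 ± 0.63 (log2, SE; edgeR adjusted p = 0.00017), where 15.3% of tested genes were lower. It was the member called in every fit that left out a library. *Lefty1* was within the *Mbd3* KO range, so the antagonist and the co-receptor had different levels relative to the KO in the same libraries. *Acvr2b*, at 48.7, 36.3 and 24.6 CPM, was 0.75 ± 0.23 above *Mbd3* KO (edgeR adjusted p = 0.0127). Against MBD2aΔGR, MBD2a had 2 members called higher, where 10.6% of tested genes were. These were *Tdgf1* (log2 fold change 2.38 ± 0.62, SE; edgeR adjusted p = 0.00591) and *Nodal* (1.50 ± 0.53; adjusted p = 0.0343). *Nodal* was lost without MBD2a library s14 or s15 or MBD2aΔGR library s16 or s18. The ESC-like sum was 102 to 487 CPM in MBD2aΔGR and 558 to 977 CPM in MBD2a.

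MBD2aR181C libraries had the widest fold range, highest over lowest, of all lines for *Nodal*, *Gdf3*, *Lefty1*, *Lefty2* and *Foxh1*. This did not hold for *Tdgf1* or *Acvr2b*. *Nodal* was at 2.14, 16.96 and 6.72 CPM, *Gdf3* at 0.297, 8.48 and 3.39 CPM and *Tdgf1* at 1.68, 10.97 and 2.86 CPM. *Lefty1* was at 7.26, 45.7 and 13.1 CPM, *Lefty2* at 5.33, 29.8 and 6.91 CPM and *Foxh1* at 1.74, 11.7 and 4.21 CPM. Library s20 was highest for all 6 of these genes, and its ESC-like sum of 475 CPM was the highest of the line, the lowest being 41.7 CPM. *Acvr2b* was lowest in the same library, at 38.2 CPM against 52.6 and 39.5 CPM.

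No member was called in MBD2aR181C against WT by edgeR (3 with an unadjusted p under 0.05, *Lefty1*, *Lefty2* and *Tdgf1*, and 0 by DESeq2), where 0.0181% of tested genes were. Against *Mbd3* KO, *Tdgf1* was called lower, by 2.86 ± 0.59 (log2, SE; edgeR adjusted p = 0.000482), where 18.1% of tested genes were lower. *Acvr2b* was called higher, where 13% were, with a log2 fold change of 1.00 ± 0.23 that sat on the threshold and fell below it under every other scaling. DESeq2 called *Nodal* lower (adjusted p = 0.0452) and not *Acvr2b*. Without library s20 all 7 members were called, with *Nodal* at -2.14 and *Foxh1* at -2.02 on the log2 scale. Without *Mbd3* KO library s05 or MBD2aR181C library s19 the count was 1, and without *Mbd3* KO library s06 it was 3.

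MBD2a exceeded MBD2aR181C in 3 members called higher, where 15.1% of tested genes were. They were *Nodal* (log2 fold change 1.82 ± 0.53, SE; edgeR adjusted p = 0.00837), *Tdgf1* (1.73 ± 0.59; adjusted p = 0.0195) and *Foxh1* (1.41 ± 0.54; adjusted p = 0.0352). *Acvr2b* was lower by 0.91 ± 0.23 (adjusted p = 0.00324), short of the fold threshold. *Nodal* was the only member called without MBD2a library s15 or MBD2aR181C library s19 or s21, and in a fit of these 2 lines alone. Without MBD2aR181C library s20, 6 members were called.

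Ordered by mean, *Nodal* fell from MBD2a (30.2 ± 5.80 CPM, SD, n = 3) over MBD2t, *Mbd3* KO, MBD2aΔGR, MBD2aR181C, MBD3a and WT to MBD3ΔMBD (2.36 ± 0.649 CPM). Of the 7 neighbouring pairs of lines in this order, 6 overlapped in their libraries, and the pair of MBD2a and MBD2t did not. For each of the other members all 7 neighbouring pairs overlapped. *Tdgf1* differed in being led by *Mbd3* KO (37.1 ± 19.2 CPM), and *Acvr2b* ran from MBD3ΔMBD (48.3 ± 3.69 CPM) down to MBD2t (21.6 ± 1.35 CPM).

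The genes most like each member were sought by the root mean square difference of line means of log2 CPM over the 8 lines, each gene centred on its own mean. For *Nodal*, whose own line means had an SD of 1.27, these were *Pm20d1* (0.11), *Tmem88* (0.15) and *Zfp979* (0.15). *Foxh1* was nearest to *Plaat3* (0.12), *Frrs1* (0.13) and *Sall4* (0.14), the last a zinc finger factor of pluripotent cells. *Gdf3* was nearest to *C1s1*, *Fam169b* and *Stra8* (0.16 to 0.19), *Lefty1* to *Slc35f2*, *Inpp5d* and *Susd5* (0.16 to 0.18) and *Lefty2* to *Susd2*, *Lat* and *Zswim7* (0.12 to 0.16). *Tdgf1* was nearest to *Sox15* (0.24), *Rinl* (0.26) and *Aqp3* (0.27). Its own line means had an SD of 1.94, the largest of the members. The differences were not scaled by this SD, so they cannot be ranked between members. *Acvr2b* was nearest to *Dgcr6* (0.06), *Klhl25* (0.06) and *Msantd2* (0.07). Between members, *Foxh1* was nearer to *Nodal* (0.32) than *Tdgf1* was (0.88).

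The wider pathway was read from a list of 31 other genes, of which 29 were tested. *Acvr1c* and *Cer1* were too low, at no more than 0.300 CPM in any library. In *Mbd3* KO against WT 9 were called higher, 3 lower and 17 neither, and their median log2 fold change was 0.13. Of all tested genes, 19.6% were called higher and 14.2% lower. Among ligands *Inhbb*, the activin B subunit, rose by 1.47 ± 0.36 and *Gdf11* fell by 1.81 ± 0.31 (log2, SE). *Furin*, a protease that cleaves pro-Nodal, rose by 1.69 ± 0.15 from 44.2 to 142.6 CPM. *Cfc1*, the other EGF-CFC co-receptor, had a log2 fold change of 1.79 ± 0.66 at no more than 0.41 CPM on average. *Acvr2a*, the second type II receptor, fell by 1.43 ± 0.16 from 94.2 to 34.9 CPM.

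Among antagonists *Fstl3*, which binds activins, rose by 2.80 ± 0.55, and the inhibitory *Smad7* rose by 1.15 ± 0.16 (log2, SE). The signal transducers *Smad2* and *Smad3* had log2 fold changes of 0.13 ± 0.08 and 0.01 ± 0.18 and were not called. Targets split. *Eomes* rose by 4.22 ± 0.69 from 0.606 to 11.5 CPM, and *Foxa2* (1.46 ± 0.55) and *Pmepa1* (1.34 ± 0.38) also rose. *Mixl1* rose by 1.43 ± 0.47, but at a low level, from 0.203 to 0.553 CPM. *Lhx1* fell by 3.72 ± 0.69 from 367 to 27.8 CPM, and *Gsc* (0.16 ± 0.54) was not called. Whether these changes follow Nodal signalling or the shift in cell type markers was not tested. In MBD2a 8 of the 29 were called higher and 4 lower against WT, where 16.9% and 13.7% of all tested genes were. In MBD2t 8 were called higher and 3 lower, where 18.2% and 15.1% of all tested genes were. In MBD2aΔGR 2 were called higher, the activin-binding antagonist *Fst* (3.72 ± 0.88) and *Foxa2* (2.36 ± 0.56; log2, SE; edgeR adjusted p = 0.0193 for each), and 0 lower, where 5.16% of all tested genes were called in either direction. Without library s18, a setting added after seeing the data, 0 were called, with *Fst* at 0.74 ± 0.48 (edgeR adjusted p = 0.522) and *Foxa2* at 0.89 ± 0.36 (adjusted p = 0.279). In MBD3a, MBD3ΔMBD and MBD2aR181C 0 were called in either direction.

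**Figure D5:**
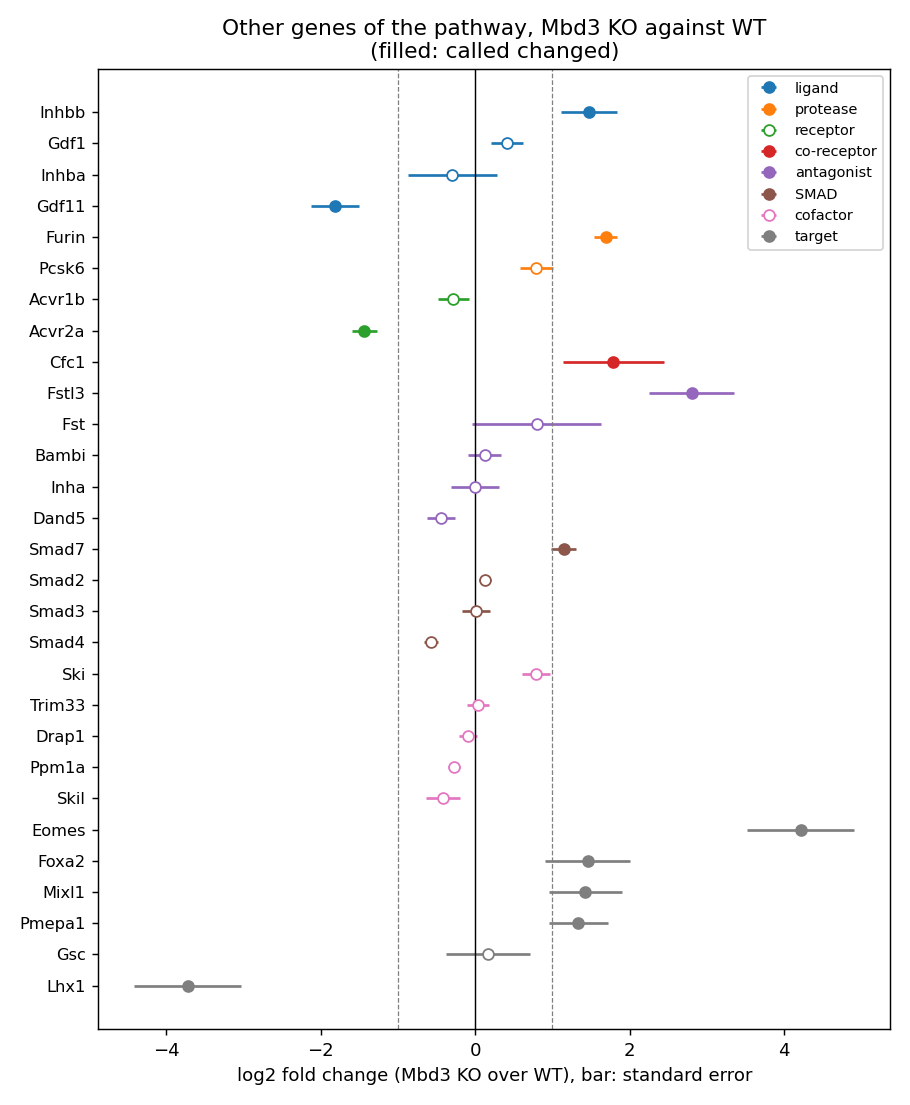
Log2 fold change of the 29 tested pathway genes in *Mbd3* KO against WT, grouped by role, with bars for the SE and filled points for called changes. *Eomes* and *Fstl3* lie farthest to the right and *Lhx1* farthest to the left, while *Smad2* and *Smad3* lie near 0.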

How the data were processed

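The authors trimmed single-end 150-base reads of directional poly(A) libraries with Trim Galore, aligned them with STAR to mm9 and used QuasR to count reads over GENCODE genes. The deposited values are raw, unnormalized counts, and the strand setting of the counting is not given in the sources used here. Columns were assigned to lines by the group in their names, except for the 3 columns of the MBD2a point mutant, whose residue number differs from the labels and which were assigned as the only such mutant, and the number of columns left out was 0. The ChIP-seq samples were not analysed here.

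Counts were filtered with filterByExpr by line, TMM-scaled and fitted in edgeR 4.0.16 (R 4.3.3) with glmQLFit (legacy = FALSE) and glmQLFTest, line being the sole factor over the 24 libraries together. The spread shared by all contrasts thus includes the 3 MBD2t libraries, which are repeats of 1 clone. SEs and p-values can therefore understate the spread between clones, and MBD2t contrasts hold no measure of it for MBD2t. SE is the absolute log2 fold change over the square root of F. Log2 CPM used a prior count of 1. The procedure was tested on simulated counts. DESeq2 1.42.0, other scalings, no filter, no fold threshold, fits of only the 2 lines compared and leaving out each library were alternatives, and the legacy quasi-likelihood test and the pathway count for MBD2aΔGR without library s18 were chosen after seeing the data. An exact permutation test (two-sided) of 3 against 3 libraries cannot go below 0.1. Floors in CPM cover counting error only.

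The 7 members and the gene lists were chosen with earlier results of these data known. Named genes are the members, pathway genes called in *Mbd3* KO against WT, *Mbd3*, *Mbd2* and, per member, the 3 genes of mean log2 CPM of at least 0 with the most similar line means. *Smad2*, *Smad3*, *Acvr1c*, *Cer1*, *Gsc*, *Nanog* and *Fst* were named after their values were seen. Sequences were read from mm9. A further pathway gene is not reported here and enters no count.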

Additional observations from a re-analysis of the deposited data

How the results depend on the processing

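Of 105 member fold changes, 37 were called, and under RLE scaling, upper quartile scaling, the legacy test and DESeq2 36 of these 37 stayed called, under no filter 35, under library size only 34 and under a fit of only the 2 lines compared 33. The count of members called in MBD2aR181C against *Mbd3* KO went from 2 to 1 under RLE scaling, upper quartile scaling, library size only, no filter, the legacy test and a fit of the 2 lines alone, since *Acvr2b* sat at the fold threshold. It went from 3 to 1 for MBD2a against MBD2aR181C in the fit of 2 lines alone, from 1 to 2 for MBD2aΔGR against *Mbd3* KO with no fold threshold, and from 0 to 1 for MBD2aΔGR against WT with DESeq2. *Lefty2* in *Mbd3* KO against WT had an adjusted p of 0.0503 without the filter.

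Leaving out each library, the count ranged from 2 to 6 for *Mbd3* KO against WT, from 4 to 6 for MBD2a against WT, from 3 to 6 for MBD2t against WT and from 0 to 1 for MBD2aΔGR against WT. Against *Mbd3* KO it ranged from 2 to 6 for MBD3a, from 6 to 7 for MBD3ΔMBD and from 1 to 7 for MBD2aR181C, and it was 1 in each fit for MBD2aΔGR. Against MBD2a it ranged from 1 to 2 for MBD2aΔGR and from 1 to 6 for MBD2aR181C. It was 0 in each fit for MBD3a, MBD3ΔMBD and MBD2aR181C against WT and for MBD2a and MBD2t against *Mbd3* KO. The log2 fold change of *Gdf3* in MBD3ΔMBD against WT, -1.92, ranged from -2.85 to 0.41 and turned positive only without WT library s03. Of the 43 smaller fold changes that are not given as results, 22 changed sign when 1 library was left out and 4 were called under at least 1 alternative. Where an arm kept 2 libraries, the spread was pooled over all lines. The cause of these changes was not tested. No paired analysis was possible because the columns carry a library number but no replicate number.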
